A study of Mus musculus with 6 samples.

Results

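The miR-23/27/24 clusters are a pair of paralogous groups of microRNA hairpins, each giving a miR-23, a miR-27 and a miR-24. They were followed here in cultured mouse epicardial cells after Hdac3 was targeted. The members were the rows of the deposited count table named for miR-23a, miR-23b, miR-27a, miR-27b, miR-24 or miR-3074, with any arm or copy suffix, which gave 14 of 1028 mature names. The a cluster (Mir23a, Mir27a and Mir24-2) gave 5 names of its own and the b cluster (Mir23b, Mir27b and Mir24-1) also 5. Another name, miR-24-3p, is made from both clusters, and 3 miR-3074 names belong to hairpins annotated on the opposite strand of miR-24. Small-RNA libraries were made from a single epicardial cell line, for which the labels also give the abbreviation MCEC. The 3 EV libraries came from cells that received an empty-vector lentivirus. The 3 KO libraries came from cells that received a lentivirus carrying a guide RNA against Hdac3 for CRISPR/Cas9 knockout. Both groups were therefore transduced with lentivirus. Neither the time after transduction nor whether KO cells were a clone or a pool is stated in the labels. Nor do they say that the libraries of a group were grown separately, and the p-values therefore rest on a spread between libraries that may be technical. Values of a group are always given in the order of its replicates 1, 2 and 3.

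Each cluster is thought to be transcribed as a single primary RNA, which Drosha cuts into hairpins and Dicer into short duplexes, so that the members of a cluster can share transcription and still differ in processing and stability. One arm of a duplex is loaded into Argonaute, where bases 2 to 8, the seed, pair with target mRNAs. The a and b forms of each 3p arm share their seed, and the clusters are known for roles in vessel growth, muscle and heart, and, for miR-27, in repressing the fat-cell regulator Pparg. Hdac3 is a histone deacetylase that works within NCoR and SMRT repressor complexes.

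The mature sequences show what distinguishes the clusters, and what does not. RefSeq (GRCm38.p6) held no sequence for miR-23b-3p or miR-3074-1-3p and gave those of the other 12 of the 14 names. All but the rare miR-23a-5p and miR-23b-5p, which have few reads, are printed 5′ to 3′ with the seed in capitals. Arms made by the a cluster come first, then those of the b cluster, then miR-24-3p and the antisense names.
miR-23a-3p: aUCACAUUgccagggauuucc
miR-27a-3p: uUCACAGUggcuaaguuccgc
miR-27a-5p: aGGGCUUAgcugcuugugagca
miR-24-2-5p: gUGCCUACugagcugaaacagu
miR-27b-3p: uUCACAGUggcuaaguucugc
miR-27b-5p: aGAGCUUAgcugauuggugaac
miR-24-1-5p: gUGCCUACugagcugauaucagu
miR-24-3p: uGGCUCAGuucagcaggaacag
miR-3074-5p: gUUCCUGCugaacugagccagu
miR-3074-2-3p: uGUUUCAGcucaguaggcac

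miR-27a-3p and miR-27b-3p have the same seed and differ at 1 base, C19U, counted from the 5′ end of the a form. Reads that end before this base cannot be assigned to one of them, and the labels do not say how the authors placed such reads. The 5p arms miR-27a-5p and miR-27b-5p differ at 8 positions, the first of them, G3A, within the seed. miR-24-2-5p and miR-24-1-5p are identical over their first 16 bases, share the seed, and part at A17U. These 5p arms are what separates the copies of miR-24, since the 3p arm is the same in both, as the hairpins show with the mature arms in capitals.
Mir24-2: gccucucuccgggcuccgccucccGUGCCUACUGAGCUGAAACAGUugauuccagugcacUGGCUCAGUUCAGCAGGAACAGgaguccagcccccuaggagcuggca
Mir24-1: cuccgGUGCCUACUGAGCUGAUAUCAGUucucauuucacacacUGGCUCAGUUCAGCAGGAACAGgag

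In GRCm38 the a cluster occupies 404 bp on the plus strand of chromosome 8 (Mir23a at 84208518 to 84208592, Mir27a at 84208672 to 84208758 and Mir24-2 at 84208815 to 84208921). GENCODE vM21 places Mir24-2 in an exon of the lincRNA gene Gm26532 on the same strand, and Mir23a and Mir27a in no other annotated gene. The nearest protein-coding gene, Zswim4, lies 1757 bp from Mir24-2. The b cluster spans 792 bp on the plus strand of chromosome 13 (Mir23b at 63300484 to 63300557, Mir27b at 63300712 to 63300784 and Mir24-1 at 63301208 to 63301275). It lies within 2010111I01Rik, the aminopeptidase O gene, with Mir23b in an intron and Mir27b and Mir24-1 overlapping an exon of at least 1 annotated transcript. On the opposite strand the b cluster is intronic to Fancc, a Fanconi anaemia gene.

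**Figure D1:**
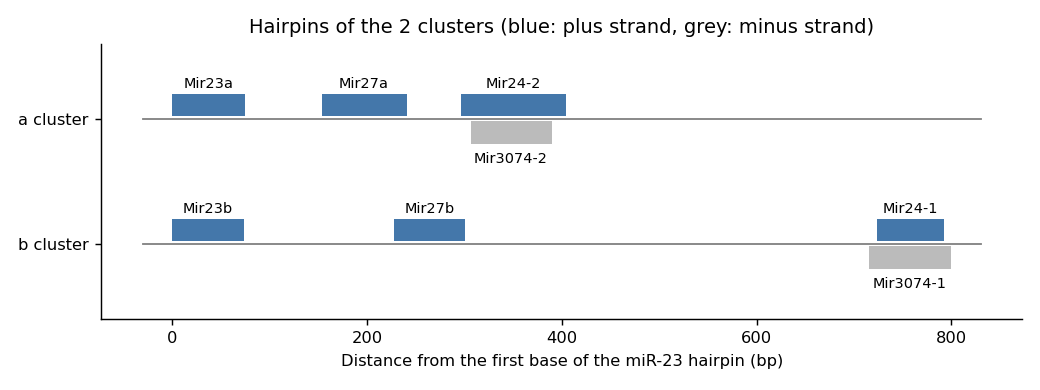
Positions of the hairpins in each cluster, as the distance in bp from the first base of the miR-23 hairpin (x axis), with plus-strand hairpins in blue above the line and minus-strand hairpins in grey below it. The order is the same in both clusters, the b cluster (792 bp) is longer than the a cluster (404 bp), and a miR-3074 hairpin lies opposite each miR-24 hairpin.

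The miR-3074 names had nearly the counts of the miR-24 arms that they overlap. miR-24-2-5p had 2199, 1590 and 1392 reads in EV and 2106, 2591 and 2173 in KO. miR-3074-2-3p had 2177, 1568 and 1367 reads in EV and 2087, 2556 and 2152 in KO, which is 98.2% to 99.1% of the miR-24-2-5p count in every library. These names share 20 genomic bases on opposite strands. miR-3074-5p overlaps miR-24-3p by 20 bases in each cluster, and its count was 99.8% of the miR-24-3p count in all 6 libraries, lower by 44 to 59 reads out of 22235 to 33884. Only miR-3074-1-3p, opposite miR-24-1-5p, departed further, at 48.8% to 81.8% of counts that were themselves between 43 and 83 reads. Reads of the overlapping names cannot be told apart in these counts, so the miR-3074 values are given but not counted as separate signals below.

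**Figure D2:**
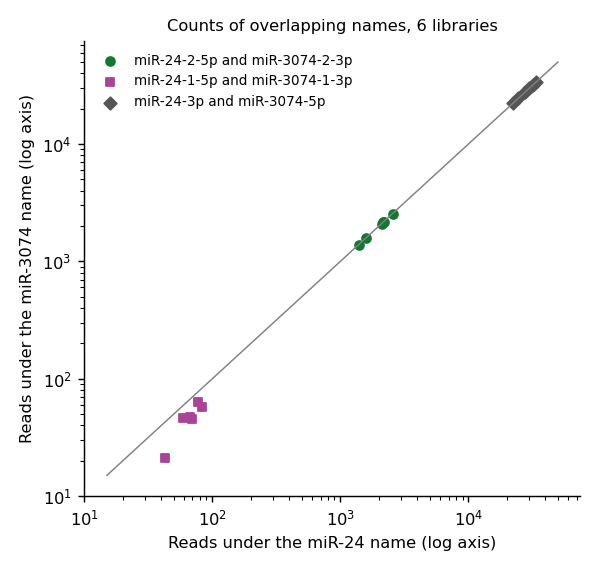
Reads under each miR-24 name (x axis, log scale) against reads under the overlapping miR-3074 name (y axis, log scale), 1 point per library, with the line of equal counts. Points of miR-24-3p and miR-24-2-5p lie on the line, with miR-3074 counts of at least 98.2% of theirs, and those of miR-24-1-5p lie below it.

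The libraries held 11824881 to 13412774 counts, and the 11 names other than miR-3074 made up 2.07% to 3.15% of them. Levels are given in CPM, counts per 1000000 after each library total was multiplied by its TMM scaling factor, so that 1 read was worth 0.0637 to 0.0892 CPM. TMM factors ran from 0.919 to 1.23, with the highest in EV 1. Since Hdac3 mRNA is absent from microRNA counts, the knockout could not be checked. The mesenchymal marker miR-143-3p stood at 71240 to 82139 CPM and the endothelial marker miR-126a-3p at 31.7 to 39.4, and no marker specific to epicardium was in the lists used. Marker lists whose sums did not overlap between the groups were the epithelial list (4 of 4 markers counted, 39.6 to 47.4 CPM in EV, 24.1 to 25.9 in KO) and the endothelial list (2 of 2, 36.6 to 42.1 in EV, 34.7 to 35.4 in KO). So were the muscle list (3 of 4, 0.892 to 1.34 in EV, 1.83 to 2.51 in KO) and the mesenchymal list (4 of 4, 74386 to 76694 in EV, 79196 to 85165 in KO). The muscle sum is mostly miR-1a-3p (mean 0.99 CPM in EV and 2.05 in KO). Its other counted markers, miR-133a-3p and miR-499-5p, had too few reads to be tested. The mesenchymal sum is mostly miR-143-3p (log2 change 0.11). Of the other mesenchymal markers miR-145a-5p was higher (0.16), miR-199a-3p (-0.09) and miR-214-3p (-0.19) were lower, and the list median was 0.01. The endothelial sum is mostly miR-126a-3p (log2 change -0.17), while miR-126a-5p went the other way (0.17). No endothelial, muscle or mesenchymal marker had an edgeR adjusted p under 0.05. Among single microRNAs, 15.2% of the 460 tested had every KO library above every EV library. The share with every KO library below every EV library was not counted. In edgeR 2 of 3 tested epithelial markers were lower in KO, miR-200a-3p (log2 change -0.88, adjusted p = 0.00898) and miR-200b-3p (-0.80, adjusted p = 0.00777), where 2.61% of all 460 tested microRNAs were lower. miR-200c-3p was not (-0.33). miR-141-3p had too few reads to be tested, with 0.0637, 0.0816 and 0.178 CPM in EV and 0 in every KO library. The leukocyte list (4 of 4) summed to at most 1.55 CPM in any library. The red blood cell marker miR-451a was high in 1 library of each group, reaching 54.7 CPM in EV 3 and 62.7 CPM in KO 2 with at most 2.45 CPM in any other library, and the neural list summed to 53.1 and 58.6 CPM in the same libraries. The part of these cell types in the results below was not tested.

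The b cluster's miR-27b-3p dominated both clusters. It stood at 21000, 19879 and 18328 CPM in EV and 22342, 23186 and 21085 CPM in KO, rank 5 among all 1028 names, and took 81.8% ± 0.330 of the reads of the 11 names in EV and 81.2% ± 0.678 in KO (SD, n = 3 each). Next came miR-24-3p, with a mean of 2232 CPM over the 6 libraries, and miR-27a-3p, with 1513. miR-23b-3p and miR-23a-3p followed at 354 and 271 CPM, miR-27a-5p and miR-24-2-5p at 158.3 and 158.2, and miR-27b-5p at 75.6. miR-24-1-5p (5.19 CPM), miR-23b-5p (1.66) and miR-23a-5p (0.212) closed the order. miR-27a-5p and miR-24-2-5p overlapped between libraries of the same group and cannot be ordered, whereas miR-23a-3p and miR-23b-3p did not overlap within EV or within KO. The b form was 13.9 times the a form for miR-27-3p, the a form 2.09 times the b form for miR-27-5p and 30.5 times for miR-24-5p. All mature forms with a sequence have 20 to 23 bases, so CPM hold almost no length difference, but adaptor ligation favours some ends over others and ratios between names carry that bias.

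**Figure D3:**
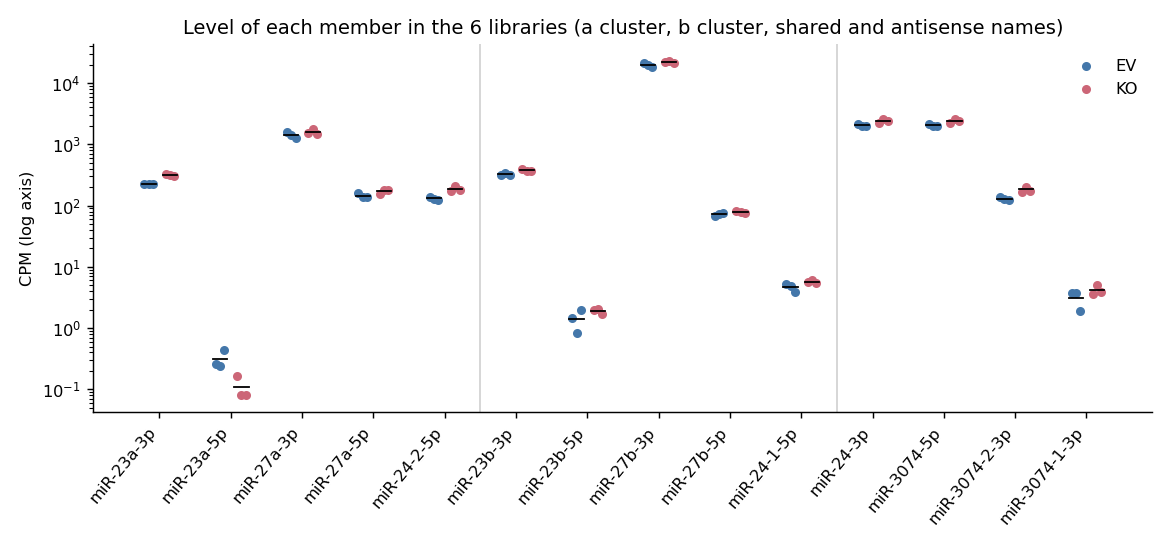
CPM on a log axis for each of the 14 names, 1 point per library (blue EV, red KO) with the group mean as a black line, ordered as a cluster, b cluster, then shared and antisense names. Levels range from 0.0798 CPM for miR-23a-5p to 23186 CPM for miR-27b-3p, a range against which the differences between groups are small.

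The comparison of KO with EV asked which members differ when Hdac3 is targeted. miR-23a-3p and miR-24-2-5p, both of the a cluster, rose in KO, and no b-cluster member and no miR-27 arm was called. The filter on low counts left 13 of the 14 names. Of these 3 were called higher and 0 lower by edgeR's quasi-likelihood test with Benjamini-Hochberg adjustment over all 460 microRNAs tested, where 5.00% were called higher and 2.61% lower. No tested member had a log2 change below 0 in this fit, and DESeq2 and limma-voom also called 0 lower. The third call, miR-3074-2-3p, shares its reads with miR-24-2-5p, which leaves 2 distinct signals among the 10 tested names other than miR-3074. Of those 10, 6 had every KO library above every EV library after TMM scaling, against 15.2% of all tested microRNAs. Except for miR-23a-3p, each of these 6 had more reads in EV 1 than in KO 1, although EV 1 held fewer counts (12806873 against 13412774). With library size alone as the scaling their groups would therefore overlap. The median log2 change of all 10 tested names other than miR-3074 was 0.24, against -0.01 over all tested microRNAs.

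miR-23a-3p, whose seed is shown above, stood at 224, 228 and 227 CPM in EV and 332, 312 and 306 in KO. All KO libraries lay above all EV libraries, with little spread in EV. It rose 1.40-fold between means of 226 ± 2.15 and 316 ± 13.7 CPM (SD, n = 3 each). In edgeR the log2 change was 0.49, the SE 0.07 and the adjusted p = 0.00346. It kept its call in 15 of 16 other settings, over which the adjusted p ran from 7.76e-06 by DESeq2 to 0.165 by edgeR. The call was lost with library size alone as the scaling, where the log2 change was 0.33 (SE 0.12, edgeR adjusted p = 0.165). That scaling moved the median change of all microRNAs from -0.01 to -0.16.

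miR-24-2-5p, the 5p arm that marks the a-cluster copy of miR-24, stood at 140, 130 and 124 CPM in EV and at 171, 207 and 178 in KO. The groups did not overlap after TMM scaling, and KO 2, the library with high miR-451a, was the highest. It rose 1.41-fold between means of 131 ± 8.04 and 185 ± 19.0 CPM (SD, n = 3 each). In edgeR the log2 change was 0.49, the SE 0.09 and the adjusted p = 0.0126. It was called in 13 of 16 other settings, with edgeR adjusted p = 0.0910 without EV 2, 0.0582 without KO 2 and 0.286 with library size alone. The lowest adjusted p of these settings was 3.88e-04, by DESeq2. The overlapping miR-3074-2-3p had a log2 change of 0.50 (SE 0.09).

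The miR-27 arms of the a cluster were not called. miR-27a-3p, the most abundant a-cluster product, stood at 1606, 1403 and 1289 CPM in EV and 1536, 1776 and 1468 in KO. These groups overlapped, since EV 1 exceeded KO 1 and KO 3. The log2 change of 0.15 had a 95% interval of -0.07 to 0.38, and it fell to -0.02 with library size alone. miR-27a-5p stood at 159, 137 and 139 CPM in EV and 157, 180 and 178 in KO, again overlapping through EV 1 and KO 1, with a log2 change of 0.25 (95% interval 0.04 to 0.45, edgeR adjusted p = 0.157). miR-23a-5p, the rarely kept arm of miR-23a, had 4, 3 and 5 reads in EV and 2, 1 and 1 in KO and did not pass the filter. Its KO to EV ratio over the summed reads was 0.352, with an exact 95% binomial interval of 0.0827 to 1.16 that covers counting error only.

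In the b cluster the 5 tested names had log2 changes from 0.11 to 0.44 and none was called by edgeR, with 1 at an unadjusted p under 0.05 and 0 called by DESeq2 or limma-voom. miR-23b-3p came closest, with 320, 337 and 321 CPM in EV and 398, 374 and 373 in KO. Its groups did not overlap after TMM scaling. Its log2 change was 0.23 (95% interval 0.08 to 0.38, edgeR adjusted p = 0.0696), with an adjusted p between 0.0616 and 0.777 in 16 other settings. miR-27b-3p had a log2 change of 0.17 (95% interval -0.04 to 0.38), and its lowest KO library, at 21085 CPM, lay just above its highest EV library, at 21000. miR-27b-5p, at 68.7, 74.1 and 75.5 CPM in EV and 80.8, 79.5 and 74.8 in KO, had a log2 change of 0.11 (95% interval -0.11 to 0.32) and -0.04 with library size alone. Few reads limited the other arms: miR-24-1-5p, with 43 to 83 reads a library, had a log2 change of 0.30 (95% interval -0.07 to 0.66), and miR-23b-5p, with 10 to 26, one of 0.44 (-0.30 to 1.18).

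miR-24-3p, the arm that both clusters make, stood at 2158, 2009 and 1984 CPM in EV and 2235, 2559 and 2444 in KO. Its groups did not overlap after TMM scaling, and the log2 change was 0.23 (95% interval 0.06 to 0.41, edgeR adjusted p = 0.0952, 0.0678 to 0.803 in 16 other settings). Whether its change differs from that of miR-24-2-5p was not tested. The other antisense names, miR-3074-5p and miR-3074-1-3p, had log2 changes of 0.23 (SE 0.08) and 0.41 (SE 0.26) and were not called.

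**Figure D4:**
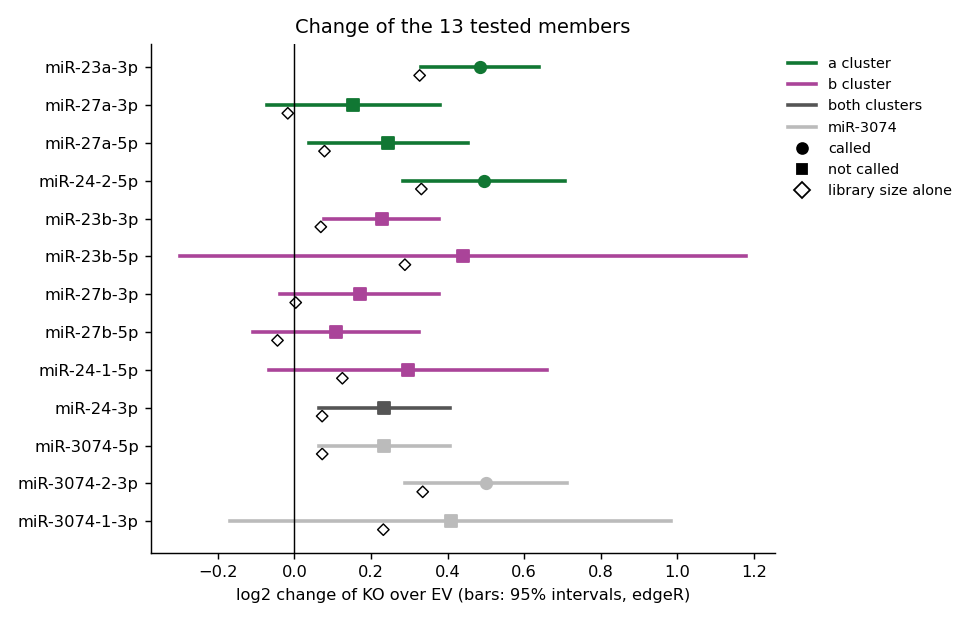
log2 change of KO over EV (x axis) for the 13 tested names, with 95% intervals from edgeR, coloured by cluster, with circles for called and squares for not called names. Open diamonds give the value with library size alone, where miR-27a-3p (-0.02) and miR-27b-5p (-0.04) turn below 0, while the called names remain above 0.

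The a and b clusters were then compared directly, since a call in one and not in the other does not show a difference. The difference of the changes was tested for 4 of the 5 paralog pairs with limma's diffSplice on voom values, and 0 pairs passed after adjustment over these pairs. This test treats the names of a pair as independent, although both are counted in the same libraries. For miR-23-3p its SE was 0.098, whereas the log2 ratio within libraries had an SD of 0.033 in EV and 0.015 in KO. That no pair passed therefore does not show that paralogs changed alike. At an unadjusted p under 0.05 there was 1, the pair miR-23a-3p and miR-23b-3p. Its changes on the voom scale were 0.48 and 0.23, a difference of 0.26 (95% interval 0.03 to 0.48, limma diffSplice adjusted p = 0.123). For miR-27-3p the a form minus the b form was -0.02 (95% interval -0.33 to 0.29), for miR-27-5p 0.13 (-0.17 to 0.43) and for miR-24-5p 0.19 (-0.28 to 0.67). These diffSplice intervals, which do not use the pairing within libraries, are wide enough to hold a difference of the size seen for miR-23-3p. The log2 ratio of miR-27a-3p to miR-27b-3p within libraries differed by -0.016 between KO and EV (SD 0.068 in EV and 0.085 in KO).

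Ratios within a library need no scaling between libraries, and for miR-23-3p they separated the groups. Without a sequence for miR-23b-3p, whether every read can be assigned to the a or the b form was not checked. miR-23a-3p made up 41.1%, 40.3% and 41.4% of miR-23a-3p plus miR-23b-3p reads in EV and 45.5%, 45.5% and 45.0% in KO. The groups lay apart by more than their own spread, at 41.0% ± 0.556 against 45.3% ± 0.266 (SD, n = 3 each), and the log2 ratio of a to b was higher by 0.26 in KO. An exact two-sided permutation test over libraries gave p = 0.10 for this pair, the smallest that 3 against 3 libraries allow, and 0.25 adjusted over the 5 pairs. The difference was 0.24 to 0.27 in every setting that left out libraries, including EV 3 and KO 2 together.

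The share of miR-27a-3p in miR-27-3p reads was 6.75% ± 0.302 in EV and 6.69% ± 0.374 in KO (SD, n = 3 each), overlapping between the groups (exact permutation p = 0.600). miR-27a-5p took 66.5% ± 2.91 and 68.6% ± 2.34 of miR-27-5p reads (exact permutation p = 0.300), and miR-24-2-5p took 96.6% ± 0.354 and 97.0% ± 0.145 of miR-24-5p reads (exact permutation p = 0.200). For miR-23-5p, where the a form had 1 to 5 reads, its share was 14.8%, 23.1% and 18.5% in EV and 7.69%, 3.70% and 4.55% in KO, the opposite direction to the 3p arm (exact permutation p = 0.10). Over all cluster-specific reads the a cluster held 9.05%, 8.55% and 8.67% in EV and 8.77%, 9.47% and 8.998% in KO. That difference of 0.325 percentage points was of the size of the spread between libraries (SD 0.261 in EV and 0.357 in KO, exact permutation p = 0.300), and the sum is mostly miR-27b-3p. With the 5p arms alone the a share was 77.8% ± 1.85 in EV and 80.5% ± 1.53 in KO (SD, n = 3 each; exact permutation p = 0.200).

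**Figure D5:**
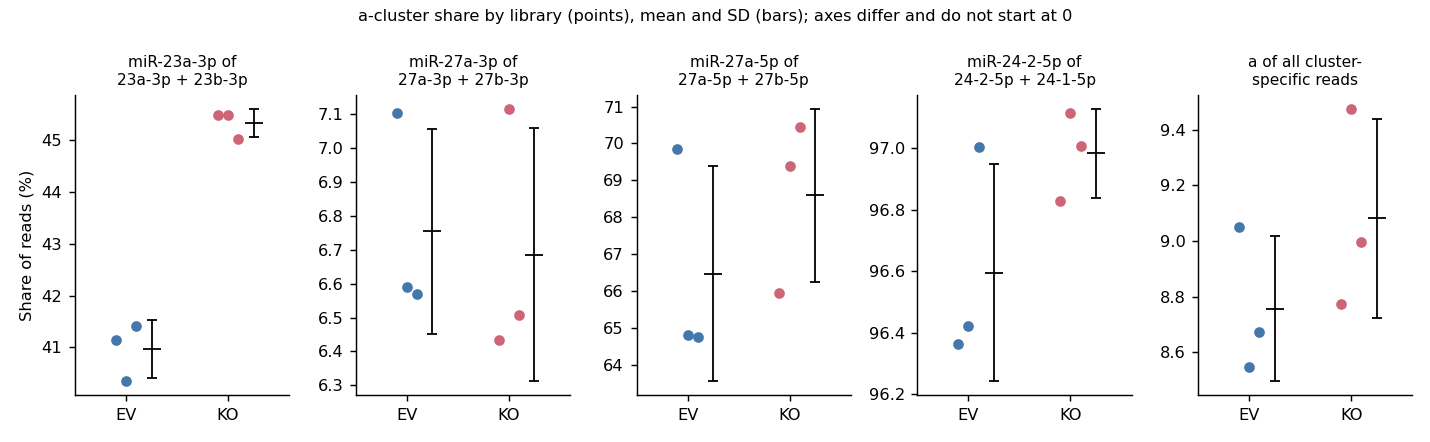
Percent of reads that belong to the a form, by library (points, EV blue and KO red), with mean and SD as bars, for 4 paralog pairs and for all cluster-specific reads; each panel has its own axis, which does not start at 0. The groups lie apart for miR-23-3p (40.3% to 41.4% in EV, 45.0% to 45.5% in KO) and overlap in the other 4 panels.

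Arms of a hairpin were compared in the same way. The 3p arm took 90.8% ± 0.457 of miR-27a reads in EV and 90.2% ± 0.926 in KO, and 99.6% of miR-27b reads in both (99.6% ± 0.0420 and 99.6% ± 0.00947, SD, n = 3 each). For miR-23b it was 99.6% ± 0.184 and 99.5% ± 0.0477. For miR-23a it was 99.86% ± 0.0495 in EV and 99.97% ± 0.0131 in KO (SD, n = 3 each), with every KO library above every EV library (exact permutation p = 0.10, the smallest these libraries allow), and its 5p arm had only 1 to 5 reads a library. The groups overlapped for the other 3 hairpins. The 3p minus 5p difference in KO change was -0.09 for miR-27a (95% interval -0.43 to 0.26), 0.06 for miR-27b (-0.21 to 0.33) and -0.28 for miR-23b (-0.98 to 0.41), and 0 of these 3 hairpins passed (diffSplice, 0 also at an unadjusted p under 0.05). Without the filter miR-23a could be tested as well, with a difference of 1.71 (SE 0.66, diffSplice adjusted p = 0.130) that rests on the few reads of its 5p arm.

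Hairpins of a cluster were compared after their values had been seen. In the a cluster miR-23a-3p exceeded miR-27a-3p in KO change by 0.33 (95% interval 0.02 to 0.64) and miR-27a-3p lay below miR-24-2-5p by a difference of -0.34 (-0.68 to 0.01), both at a diffSplice adjusted p = 0.169 over 6 pairs. miR-23a-3p and miR-24-2-5p, at the ends of the cluster, differed by -0.01 (-0.28 to 0.27). In the b cluster the 3 differences ran from -0.13 to 0.06, with adjusted p = 0.842 each. None of the 6 pairs passed, and the middle hairpin of the a cluster was therefore not shown to differ from its neighbours.

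The authors' deposited table lists 78 names, 7.59% of those in the count table, and 6 of the 14 members are among them. In the authors' deposited table miR-23a-3p has a log2 change of 0.46 and miR-24-2-5p of 0.47. It also lists miR-23b-3p, at 0.21 with an adjusted p of 0.00108, and miR-24-3p, at 0.21 with an adjusted p of 0.0440, in the authors' deposited table. These last names were not called by edgeR, nor by DESeq2 or limma-voom on the deposited counts, although the fold changes are close to those of edgeR (0.23 for both). The remaining names in the authors' deposited table are miR-3074-2-3p and miR-3074-5p.

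Outside the clusters, the levels of miR-27b-3p across the 6 libraries were most like those of miR-25-3p (Pearson r = 0.99 on log2 CPM), miR-1843b-5p (0.93) and miR-148b-3p (0.91). Those of miR-27a-3p were most like miR-125a-3p (r = 0.97), miR-674-3p (0.94) and miR-25-3p (0.92), among 239 microRNAs of at least 10 CPM that are not members. These are descriptions over 6 points that share library and scaling. Among the members, miR-23a-3p and miR-23b-3p varied together (r = 0.98), as did miR-27a-3p and miR-27b-3p (0.91), whereas miR-23a-3p and miR-27a-3p, neighbours in the a cluster, had r = 0.50.

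Related microRNAs were read beside the clusters. Of 12 listed angiogenesis and vessel microRNAs, 11 were tested and 0 were called by edgeR, with 2 at an unadjusted p under 0.05 and 1 called by each of DESeq2 and limma-voom. Of all 460 tested microRNAs edgeR called 5.00% higher and 2.61% lower, while DESeq2 called 44 microRNAs in all and limma-voom 38. Their median log2 change was 0.17, against -0.01 over all tested microRNAs. That median is the value of miR-126a-5p and of miR-126b-3p, which had the same CPM in every library. These names therefore cannot be taken as separate signals, and the median is not read as a shift of the list. The most abundant of them, miR-218-5p, had a mean of 1134 CPM and a log2 change of -0.08 (SE 0.07), and miR-221-3p had one of 0.38 (edgeR adjusted p = 0.0657, SE 0.11). miR-128-3p, whose seed is that of miR-27 moved by 1 base, was tested with a level of 99.6 CPM and had a log2 change of -0.08 (SE 0.10). The shift can be seen in its sequence.
miR-128-3p: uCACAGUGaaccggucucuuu

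Of 16 listed microRNAs of cardiac growth and fibrosis, 12 were tested, 2 were called higher and 0 lower, where 5.00% and 2.61% of all 460 tested microRNAs were called. Their median log2 change was 0.39, against -0.01 over all tested. miR-199a-5p (-0.16), miR-199a-3p (-0.09) and miR-22-3p (-0.04) were below 0, and every other tested member of the list was above it. The largest change, of miR-1a-3p (1.06, SE 0.30), was at a mean of 1.52 CPM. As the list was chosen with earlier results known, its median is not read as a shift. Those called were miR-34a-5p, a p53 target, whose log2 change was 0.79 (edgeR adjusted p = 0.00220, SE 0.10), and miR-30c-5p, of the miR-30 family, with one of 0.41 (edgeR adjusted p = 0.0314, SE 0.10). miR-30c-5p stood at 383, 429 and 508 CPM in EV and 594, 570 and 593 in KO, without overlap.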

How the data were processed

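Read counts of mature microRNAs were deposited by the authors as whole numbers for 3 EV and 3 KO libraries. The submitters' processing notes name Bowtie, mm10 and DESeq 1.8.3; neither they nor the labels say how a read matching several names was counted. TPM as deposited equal counts per 1000000 and went unused. The comparison table that the authors deposited holds group means (a normalized signal), log2 fold changes and p-values.

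Counts were tested with edgeR 4.0.16 in R 4.3.3 (TMM, filterByExpr with minimum count 10 and minimum total 15, quasi-likelihood F test, two-sided, Benjamini-Hochberg at 0.05 over 460 microRNAs). Paralog and arm pairs were tested with diffSplice on voom values (limma 3.58.1) and with exact permutation tests of log2 ratios with 0.5 added to each count. DESeq2 1.42.0 was an alternative. Every member was named. Related lists are given by counts and up to 3 called members, or the most abundant. Members, lists and tests were chosen with earlier results of these data known. Scripts were tested on simulated data. Mature sequences are from RefSeq, GRCm38.p6.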

Additional observations from a re-analysis of the deposited data

How the results depend on the processing

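The count of members higher in KO was 3 and stayed within 1.5 times that in 13 of 16 other settings. It was 0 with library size alone, where 5 microRNAs in all were called against 35 by TMM, and 1 without EV 2 or without KO 2 (range 1 to 3 over single libraries left out). No setting gave a member lower in KO, a paralog pair or an arm pair that passed. Changes of miR-27a-3p (-0.017) and miR-27b-5p (-0.044) turned below 0 with library size alone. Over single libraries left out, differences that changed sign ran from -0.067 to 0.023 for miR-27a-3p minus miR-27b-3p, from -0.52 to 0.051 for the arms of miR-23b and from -0.018 to 0.15 for those of miR-27b. Those within clusters ran from -0.096 to 0.086 for miR-23a-3p minus miR-24-2-5p, from -0.0035 to 0.10 for miR-23b-3p minus miR-27b-3p and from -0.19 to 0.038 for miR-23b-3p minus miR-24-1-5p. Without EV 3 and KO 2 the arms of miR-27b gave -0.039, miR-23a-3p minus miR-24-2-5p 0.13 and miR-23b-3p minus miR-24-1-5p 0.10. The difference in a-cluster share was 2.76 percentage points with 5p arms alone, because other names were summed, and 0.129 to 0.479 with 1 library left out. All microRNAs called numbered 15 to 59 with 1 library left out, 88 without EV 3 and KO 2, and 56 without the filter. Replicate numbers did not pair the libraries (same-numbered deviations correlated at 0.41, -0.36 and -0.54 over 249 microRNAs). Across numbers, deviations correlated at 0.66 for EV 3 with KO 2, 0.59 for EV 1 with KO 3 and 0.54 for EV 2 with KO 1. Other pairs across numbers ran from -0.61 to 0.09, and no test matched libraries across numbers. The replicate block gave 3 members higher and 34 called in all. The cause of these changes was not tested, except where the setting itself names it. Counts under 100 reads limited miR-24-1-5p, miR-23b-5p and miR-23a-5p.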
